A study of Mus musculus with 9 samples.

Results

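The translation initiation and elongation factors of the mouse lens were compared between 4 *Atf4* null and 5 wildtype embryos at E16.5. The group comprised the protein-coding genes whose mouse symbol starts with Eif1 to Eif6, Eef1 or Eef2, without the eIF2 kinases, the eIF2 subunits and *Eef1e1*. This rule used no measured value and found 78 of the 55416 genes counted. Each library was made from total RNA of a single pair of whole lenses, so each replicate was 1 embryo. *Atf4* null embryos were homozygous for the germline allele B6;129-Atf4tm1Tow, in which a neomycin cassette stands in place of the *Atf4* coding sequence, and wildtype embryos were littermates that carried no copy of it. Both came from intercrosses of heterozygotes on a mixed C57Bl/6/129 background, in a colony that was not typed for the *Bfsp2* deletion of the 129 strain. The allele acts in every cell of the embryo and not in the lens alone. Embryos of both sexes were used, and the labels do not give the sex of a library.

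Translation starts when a small ribosomal subunit carrying the initiator tRNA is brought to the capped end of an mRNA and scans to a start codon. The eIF4 proteins bind the cap and unwind the mRNA, eIF3 is the scaffold that holds the subunit and the mRNA together, and eIF1, eIF1A and eIF5 govern the choice of the start codon. eIF5B then joins the large subunit, eEF1A delivers each charged tRNA, the eEF1B complex recharges eEF1A with GTP, and eEF2 moves the ribosome along. eIF2B reloads eIF2 with GTP, and its inhibition by phosphorylated eIF2 under stress slows most translation while that of *Atf4* mRNA rises. In the lens the fiber cells synthesise crystallins in very large amounts before they lose their organelles.

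The libraries held 7440807 to 8906996 reads assigned to genes, and the translation factors took 1.35 to 1.56% of them in wildtype and 1.56 to 1.69% in *Atf4* null libraries. Whether these counts cover all the sequencing lanes of a library is not stated in the sources used here. *Atf4* itself lay at 3.3, 8.6, 10.6 and 0.58 CPM (counts relative to the library total, scaled by TMM factors) in null replicates 1 to 4 and at 119 to 155 CPM in the wildtype libraries, which fits the genotype labels. Of 8 lens fiber markers, 7 were measured at high levels, with *Lim2* listed at 0 in every library. Their summed level was lowest in null replicate 1 (41436 CPM) and wildtype replicate 5 (57386 CPM) and reached 98324 CPM in null replicate 4 and 105092 CPM in wildtype replicate 1. Wildtype replicate 5 also held mesenchyme markers at 14480 CPM and skeletal muscle markers at 4627 CPM, against at most 272 and 21.6 CPM in the other wildtype libraries. The 9 retina and neuron markers summed to 297 to 769 CPM in null and 160 to 264 CPM in wildtype libraries, and 4 of them were called higher. Of 6 lens epithelium markers 4 were called lower, as were 2 of the 7 fiber markers tested, 1 of 9 mesenchyme and 1 of 5 blood markers tested, while no vascular, macrophage, pigment cell or muscle marker was called. In whole lenses fewer cells of a type and less RNA per cell cannot be told apart.

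Of the 78 factors, 54 had enough reads to be tested. Expression of 5 of them (9.26%) differed between genotypes at an adjusted p below 0.05 (edgeR quasi-likelihood test, Benjamini-Hochberg over 14903 genes), beside 5.90% of all genes tested. Unless another tool or setting is named, called means past this test. *Eif5b*, *Eef2kmt* and *Eef1b2* were lower in the *Atf4* null lens and *Eif3j1* and *Eif3d* were higher. Over all genes tested, 3.67% were called lower and 2.23% higher. The remaining 49 factors did not pass. Of the 54, 17 had an unadjusted p below 0.05 by edgeR, the 5 called factors among them. Of the 14903 genes tested, 2915 had such a p. The median log2 fold change was 0.06 over the 54 factors and 0.00 over all genes tested, and 32 of the 54 were positive (59.3%, beside 50.1% of all genes). The median over the factors moved with single libraries, to 0.0078 without null replicate 4, 0.019 without wildtype replicate 5 and 0.10 without null replicate 1, and was 0.18 with library size alone (all genes 0.12). The levels of the genotypes did not overlap for 10 of the 54 (18.5%), 6 of them higher and 4 lower in the null lens, where 10.2% of all genes tested did not overlap (4.65% higher and 5.58% lower). When libraries were scaled by their total alone, the median over all genes shifted to 0.12 and 12 factors were called, 11 higher and 1 lower, and the share of higher calls among all genes went from 37.8 to 64.3%. Under that scaling 8.25% of all genes were called, and the 5 factors kept their direction, but *Eef1b2* and *Eef2kmt* lost their call (adjusted p 0.092 and 0.066 by edgeR). DESeq2 called 10 factors (18.5%), the same 5 among them, beside 9.37% of all genes. Without null replicate 1, 8 factors were called, beside 5.53% of all genes, and without wildtype replicate 1, 3 were called, beside 4.08%. Without null replicate 2, null replicate 3, wildtype replicate 2 or wildtype replicate 3, only 2 factors were called, beside 3.41, 3.64, 3.90 and 3.85% of all genes.

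**Figure D1:**
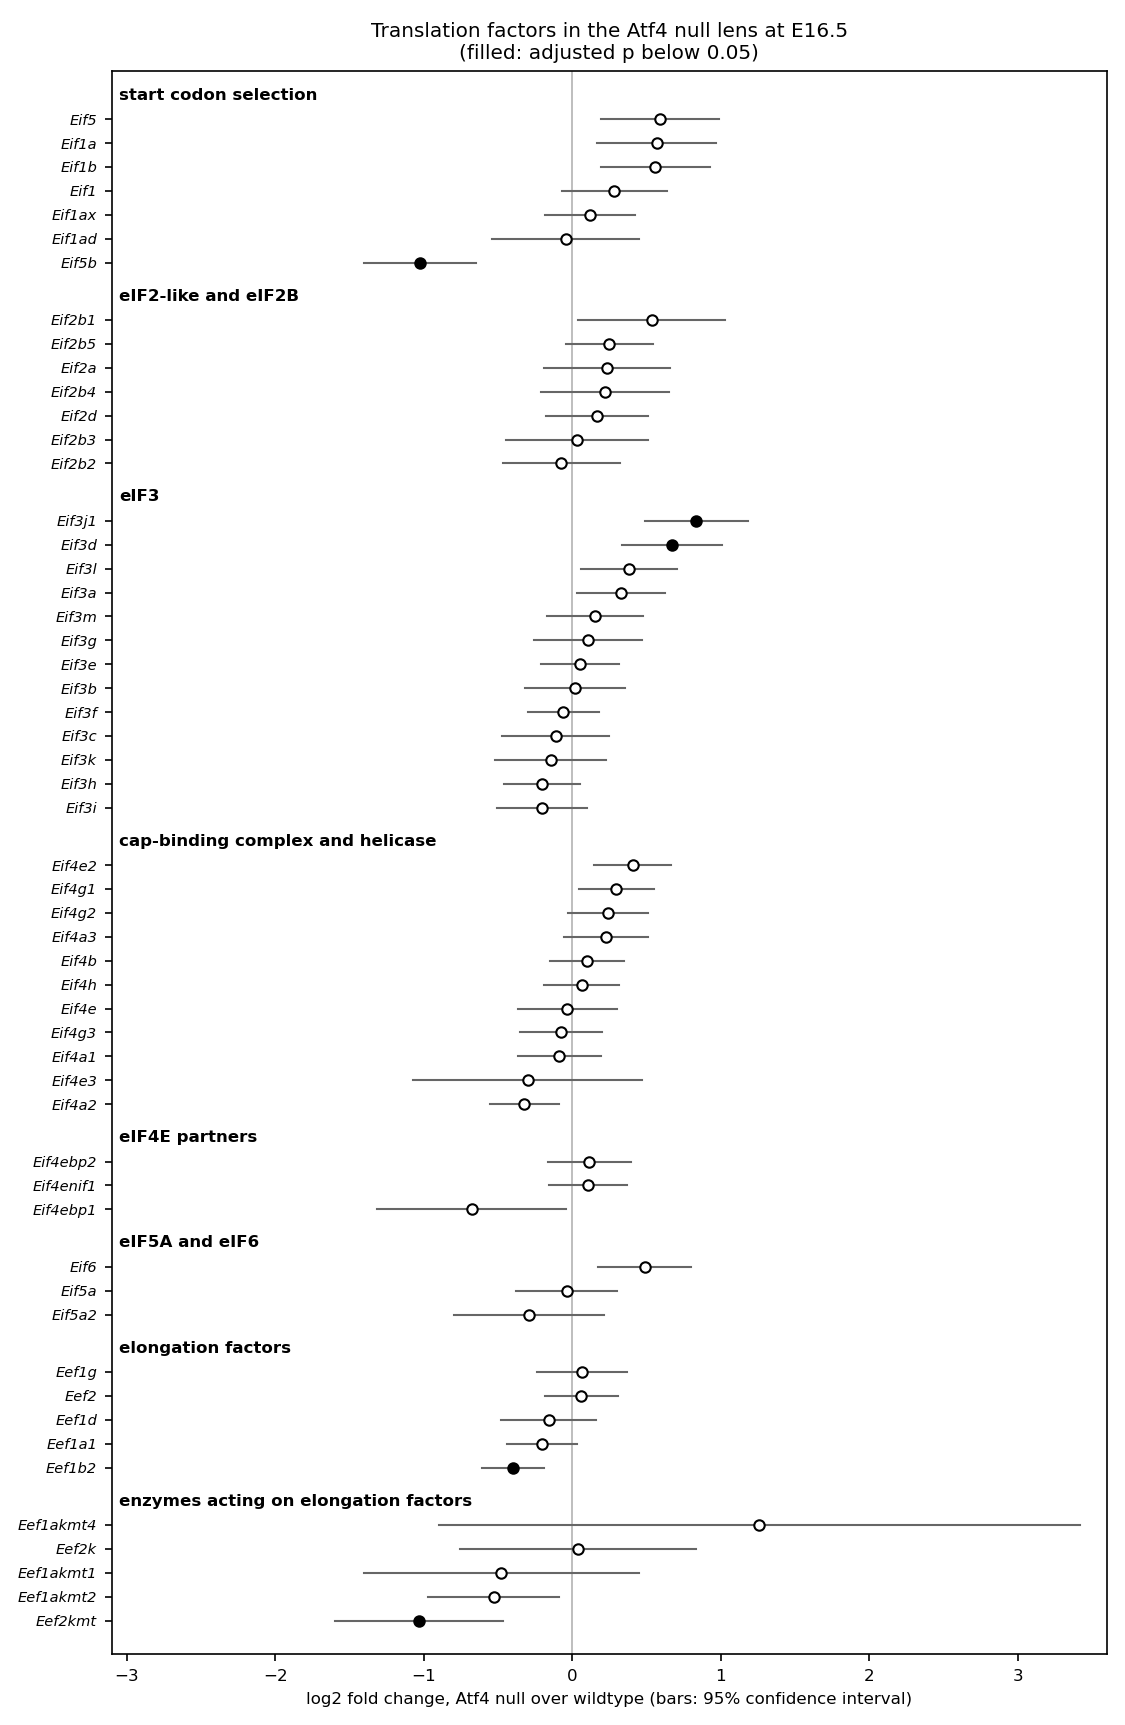
Log2 fold change of the 54 tested translation factors (*Atf4* null over wildtype, horizontal axis), ordered by role. Bars are 95% confidence intervals and filled circles mark an adjusted p below 0.05. *Eif5b* and *Eef2kmt* lie near -1.0, *Eif3j1* and *Eif3d* are the highest of the eIF3 genes, and most other factors lie within 0.5 of zero.

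Among the factors that act at the start codon, *Eif5b*, the GTPase that joins the ribosomal subunits, was lower in the *Atf4* null lens. It lay at 318, 392, 370 and 515 CPM in null replicates 1 to 4. In wildtype replicates 1 to 5 it lay at 919, 774, 870, 930 and 562 CPM. Every null library was below every wildtype library, with wildtype replicate 5 the nearest. Its level fell by 50.8% (log2 fold change -1.02 ± 0.17 SE, 95% interval -1.40 to -0.65, adjusted p = 0.0036 by edgeR; unadjusted exact permutation p = 0.016, two-sided). *Eif5b* (ENSMUSG00000026083) lies on the forward strand at chr1:38037038-38094683 of GRCm39. Of the 75-base words of its transcript, 21.4% also occur in transcripts of 1 other gene. Here and below such words were matched in both orientations, so overlap with a gene on the other strand counts among them.

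None of the other 6 start codon factors tested was called by edgeR, while DESeq2 called *Eif5* and *Eif1b* higher (adjusted p = 0.015 and 0.037). *Eif5*, the GTPase-activating partner of eIF2, lay at 365, 494, 493 and 706 CPM in null and 415, 351, 347, 350 and 246 CPM in wildtype libraries. Null replicate 1 lay within the wildtype range, and the difference of 0.59 ± 0.18 SE (log2) had an adjusted p of 0.083 by edgeR. *Eif5* was called without null replicate 1 (log2 0.73, adjusted p = 0.023 by edgeR). *Eif1b* and *Eif1a*, which encode close relatives of eIF1 and eIF1A, did not overlap between genotypes. *Eif1b* was at 44.7 to 55.5 CPM in null and 26.7 to 44.3 CPM in wildtype libraries (log2 0.56, adjusted p = 0.078 by edgeR, and 0.042 without wildtype replicate 4). *Eif1a* was at 33.9 to 47.5 CPM in null and 20.1 to 33.8 CPM in wildtype libraries (log2 0.57, adjusted p = 0.10 by edgeR). *Eif1ax*, the X-linked gene for eIF1A, had a log2 fold change of 0.12 (95% interval -0.19 to 0.42), which ranged from 0.037 without null replicate 4 to 0.22 without wildtype replicate 1. *Eif1*, the factor of this role with the highest level per length of the canonical transcript (*Eif5b* over the length of all annotated exons), lay at 139, 196, 177 and 249 CPM in null and 186, 158, 163, 155 and 121 CPM in wildtype libraries. Its groups overlapped, with a log2 fold change of 0.28 (95% interval -0.07 to 0.64), or 0.12 without null replicate 4. Of the 75-base words of its transcript, 46.5% also occur in transcripts of other genes.

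Within a library, the ratio of *Eif5b* to *Eif5* CPM separated the genotypes further than either gene did. It was 0.87, 0.79, 0.75 and 0.73 in null replicates 1 to 4 and 2.21, 2.20, 2.51, 2.65 and 2.29 in wildtype replicates 1 to 5. Wildtype replicate 5, which was lowest of its group for both genes, was within the wildtype range of this ratio. Such ratios use no scaling factor between libraries. They were chosen after the values of the genes were seen and are given without a test. Other ratios were computed as well. Those of *Eif4e2* to *Eif4e*, *Eif4a2* to *Eif4a1*, *Eif1b* to *Eif1* and *Eif5a2* to *Eif5a* overlapped between genotypes. The ratios of *Eif4ebp1* to *Eif4e* and to *Eif4ebp2* overlapped too, while that of *Eif5b* to *Eif1ax* did not.

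**Figure D2:**
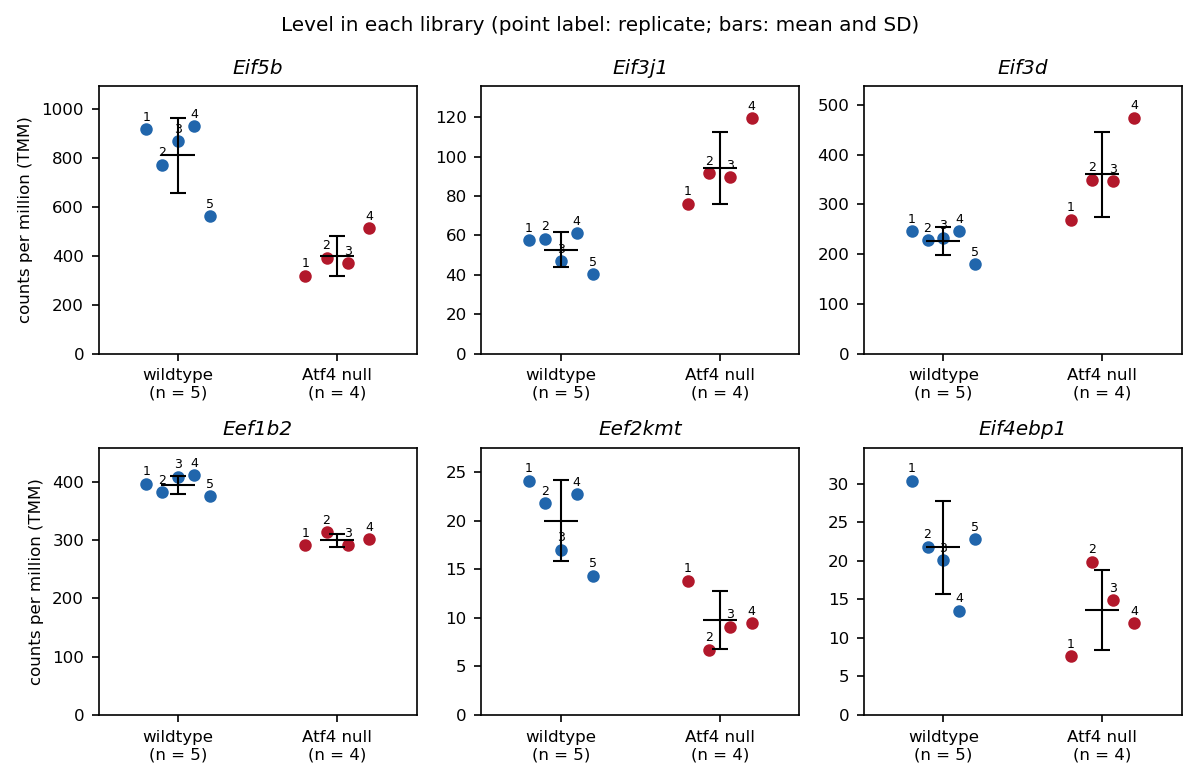
Level in CPM (vertical axes, from 0) of the 5 called factors and *Eif4ebp1* in each wildtype (blue) and *Atf4* null (red) library. Point labels give the replicate number, and bars the mean and SD. The genotypes do not overlap in the first 5 panels and overlap for *Eif4ebp1*.

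In eIF3, the scaffold complex, 2 of the 13 genes tested were called, both higher in the null lens. *Eif3j1* encodes the loosely bound j subunit, which sits in the mRNA channel of the small ribosomal subunit. It lay at 76.1, 91.5, 89.7 and 120 CPM in null replicates 1 to 4. The wildtype libraries held 57.6, 58.2, 46.8, 61.0 and 40.2 CPM. All null libraries were above all wildtype libraries, with null replicate 4 the highest. The rise was 78.5% (log2 0.84 ± 0.16 SE, 95% interval 0.49 to 1.18, adjusted p = 0.0079 by edgeR; unadjusted exact permutation p = 0.0079, two-sided, the smallest that 4 against 5 libraries allow). *Eif3j1* (ENSMUSG00000027236) lies on the forward strand at chr2:121858606-121906334 of GRCm39.

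Its near-copy *Eif3j2* on chromosome 18 was not tested, with at most 12 reads in a library and 0.37 to 1.2 CPM. Of the 75-base words of the *Eif3j1* transcript, 53.0% also occur in transcripts of other annotated genes, and 89.9% of those of *Eif3j2*. The level of either gene is therefore uncertain as far as such reads were left out or divided.

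*Eif3d*, whose product can itself bind the mRNA cap, was at 269, 350, 347 and 474 CPM in null replicates 1 to 4. The wildtype libraries held 246, 228, 233, 246 and 179 CPM. The groups did not overlap, but null replicate 1 and the highest wildtype library were close. The rise was 59.2% (log2 0.67 ± 0.16 SE, adjusted p = 0.021 by edgeR; unadjusted exact permutation p = 0.0079). The call was lost without null replicate 2, null replicate 3, wildtype replicate 2 or wildtype replicate 3, each left out alone, at adjusted p-values of 0.059, 0.055, 0.053 and 0.053 by edgeR and log2 fold changes of 0.67 to 0.69. *Eif3d* (ENSMUSG00000016554) lies on the reverse strand at chr15:77843137-77855332 of GRCm39.

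The other 11 eIF3 genes tested had log2 fold changes of -0.20 to 0.38, 6 positive and 5 negative, and none passed (lowest adjusted p 0.17 by edgeR). *Eif3a*, the largest core subunit and the one with the highest level per length, lay at 956, 1103, 1126 and 1492 CPM in null and 1019, 961, 883, 996 and 801 CPM in wildtype libraries. Null replicate 1 was within the wildtype range, and the log2 fold change was 0.33 (95% interval 0.03 to 0.62, adjusted p = 0.20 by edgeR), or 0.19 without null replicate 4. Against the sum of those 11 genes, both called subunits stood apart in every library. The ratio of *Eif3j1* to the sum was 0.031 to 0.033 in null and 0.017 to 0.021 in wildtype libraries. The ratio of *Eif3d* was 0.11 to 0.13 in null and 0.081 to 0.086 in wildtype libraries.

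**Figure D3:**
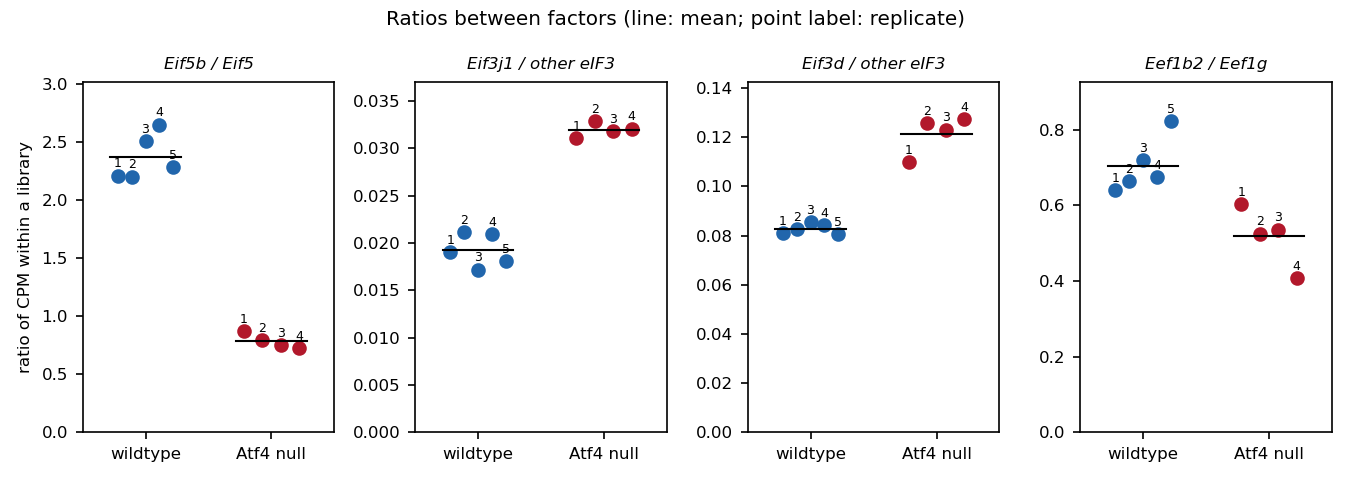
Ratio of CPM within each library (vertical axes, from 0) for *Eif5b* to *Eif5*, *Eif3j1* and *Eif3d* to the sum of the 11 other eIF3 genes, and *Eef1b2* to *Eef1g*. Points are libraries with their replicate number, lines are group means, and in all 4 panels the genotypes do not overlap. Other ratios that were computed and are not shown did overlap.

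None of the 7 genes of eIF2B and the eIF2-like factors was called by edgeR or DESeq2. The log2 fold change was positive for 6 of the 7, beside 59.3% of the 54 factors and 50.1% of all genes tested. *Eif2b3*, counted among the 6, lay at 0.03 and kept its sign in only 12 of 17 alternatives. The 7 genes were those of all 5 subunits of eIF2B, *Eif2b1* to *Eif2b5*, and *Eif2a* and *Eif2d*, which encode initiator tRNA carriers separate from eIF2. *Eif2b1*, the regulatory alpha subunit, showed the widest difference at 0.53 (95% interval 0.04 to 1.03, adjusted p = 0.21 by edgeR), with 16.8 to 30.9 CPM in null and 12.2 to 20.4 CPM in wildtype libraries. *Eif2b5*, the catalytic subunit and the gene of this role with the highest level per length of the canonical transcript (*Eif2b2* over all annotated exons), lay at 105, 117, 102 and 120 CPM in null and 109, 95.9, 90.9, 103 and 68.1 CPM in wildtype libraries. Its groups overlapped, with an interval of -0.04 to 0.54 for the log2 difference.

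None of the 11 cap-binding and helicase genes tested was called by edgeR, while DESeq2 called *Eif4e2* higher and *Eif4a2* lower (adjusted p = 0.040 and 0.044). The log2 fold changes lay between -0.32 and 0.41. *Eif4e2*, a cap-binding protein that acts mainly in repression, was the highest at 0.41 ± 0.12 SE (adjusted p = 0.070 by edgeR, and 0.040 without null replicate 1), with 113 to 146 CPM in null and 85.5 to 116 CPM in wildtype libraries. *Eif4a2*, a second form of the helicase, lay at 187, 223, 216 and 188 CPM in null and 242, 266, 252, 278 and 234 CPM in wildtype libraries. These did not overlap, and the log2 fold change was -0.32 ± 0.11 SE (adjusted p = 0.10 by edgeR). Its paralog *Eif4a1*, the gene of this role with the highest level per length of the canonical transcript (*Eif4g2* over all annotated exons), overlapped at 420, 446, 459 and 550 CPM in null and 557, 494, 503, 540 and 394 CPM in wildtype libraries (log2 -0.09, 95% interval -0.37 to 0.19), and 64.0% of its 75-base words also occur in transcripts of other genes. *Eif4g2*, a relative of eIF4G that lacks the region for binding eIF4E, was at 1241 to 1582 CPM in null and 915 to 1240 CPM in wildtype libraries, without overlap but by a narrow gap. Its log2 fold change was 0.24 (adjusted p = 0.31 by edgeR), or 0.15 without null replicate 4. *Eif4g1*, the main scaffold of the cap complex, was at 800 to 1103 CPM in null and 682 to 800 CPM in wildtype libraries, with null replicate 1 and wildtype replicate 1 level (log2 0.30, adjusted p = 0.17 by edgeR).

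Of the proteins that bind eIF4E, *Eif4ebp1* encodes the mTORC1-controlled repressor of cap-dependent translation. It lay at 7.7, 19.9, 14.9 and 11.9 CPM in null and 30.4, 21.8, 20.1, 13.5 and 22.8 CPM in wildtype libraries. The groups overlapped, since wildtype replicate 4 lay below 2 of the null libraries. The log2 fold change of -0.68 ± 0.30 SE was the lowest of the factors that were not called (95% interval -1.31 to -0.04, adjusted p = 0.22 by edgeR). *Eif4enif1*, the eIF4E transporter and the gene of this role with the highest level per length of the canonical transcript (*Eif4ebp2* over all annotated exons), lay at 97.3, 80.0, 79.6 and 89.8 CPM in null and 78.6, 82.1, 94.99, 70.5 and 77.2 CPM in wildtype libraries. The ranges overlapped, and the interval of the log2 difference was -0.16 to 0.37. *Eif4ebp2* was similar, with 67.4 to 82.1 CPM in null and 55.3 to 76.9 CPM in wildtype libraries.

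*Eif5a*, which encodes the hypusine-carrying factor that eases stalled ribosomes, lay at 182, 237, 227 and 293 CPM in null and 284, 273, 234, 236 and 179 CPM in wildtype libraries. Its groups overlapped except for null replicate 4 above and wildtype replicate 5 below (log2 -0.04, 95% interval -0.38 to 0.30). *Eif6*, which keeps large subunits from joining too early, was at 44.3, 56.9, 57.2 and 56.3 CPM in null and 41.3, 41.2, 32.6, 39.9 and 36.3 CPM in wildtype libraries. Its groups did not overlap and the log2 fold change was 0.49 ± 0.14 SE, with an adjusted p of 0.069 by edgeR. Of the 75-base words of its transcript, 37.8% also occur in transcripts of 1 other gene. It was called by DESeq2 (adjusted p = 0.034) and without null replicate 1 (adjusted p = 0.038 by edgeR).

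Among the elongation factors 1 of the 5 genes tested was called. *Eef1b2* encodes the alpha subunit of the eEF1B exchange complex, which exchanges GDP for GTP on eEF1A. It lay at 292, 314, 291 and 302 CPM in null replicates 1 to 4. The wildtype libraries held 397, 382, 409, 411 and 375 CPM. The groups were far apart for their spread, with SDs of 10.6 and 16.04 CPM around means of 299.7 and 394.7 CPM. Its level fell by 24.1% (log2 -0.40 ± 0.10 SE, 95% interval -0.61 to -0.19, adjusted p = 0.028 by edgeR; unadjusted exact permutation p = 0.0079). *Eef1b2* (ENSMUSG00000025967) lies on the forward strand at chr1:63215940-63219645 of GRCm39. Left out alone, null replicates 2 and 3 and wildtype replicates 1, 2, 3 and 4 each took the adjusted p above 0.05, to 0.056 to 0.090 by edgeR, at log2 fold changes of -0.42 to -0.38. The call was also lost with edgeR exactTest, the test of the authors (adjusted p = 0.083), without a filter on low counts (0.075), with library size alone (0.092) and with the replicate number as a block (0.060).

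The genes for the other subunits of the same complex were not called. *Eef1d*, which encodes the delta subunit with a related exchange domain, was at 156, 150, 169 and 205 CPM in null and 212, 190, 200, 215 and 135 CPM in wildtype libraries. Its groups overlapped (log2 -0.16, 95% interval -0.48 to 0.16), with -0.10 without null replicate 2, -0.26 without null replicate 4 and -0.26 without wildtype replicate 5. *Eef1g*, which encodes the anchoring gamma subunit, was at 484, 597, 543 and 742 CPM in null and 620, 575, 568, 609 and 456 CPM in wildtype libraries, and overlapped as well (log2 0.06, 95% interval -0.24 to 0.37). The ratio of *Eef1b2* to *Eef1g* was 0.41 to 0.60 in null and 0.64 to 0.82 in wildtype libraries. Of the 75-base words of *Eef1g*, 56.5% also occur in transcripts of other genes, and 12.5% of those of *Eef1b2*, which leaves the level of *Eef1g* and this ratio uncertain. The ratio to *Eef1d* overlapped between genotypes, at 1.47 to 2.09 in null and 1.88 to 2.78 in wildtype libraries.

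Per kilobase of transcript, *Eef1a1* was the most abundant factor in wildtype lenses, at 1821 ± 158 FPKM (SD, n = 5), followed by *Eef2* at 622 ± 53.8 FPKM. *Eef1a1* lay at 2547, 2836, 2944 and 3033 CPM in null and 3434, 3357, 3371, 3407 and 2763 CPM in wildtype libraries. Wildtype replicate 5 fell among the null libraries, and the log2 fold change was -0.20 (95% interval -0.44 to 0.03, adjusted p = 0.34 by edgeR). The level of *Eef1a1* is likewise uncertain, with 41.7% of its 75-base words shared. *Eef2* overlapped in part, at 1721 to 2204 CPM in null and 1645 to 2075 CPM in wildtype libraries (log2 0.06, 95% interval -0.19 to 0.31). *Eef1a2*, the muscle and neuron form of eEF1A, had too few reads to be tested, with 3.7 CPM in null replicate 1, 3.6 CPM in wildtype replicate 5, 1.9 CPM in wildtype replicate 4 and at most 0.44 CPM in the others.

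Of the 5 tested genes for enzymes that modify elongation factors, 1 was called. *Eef2kmt* encodes a lysine methyltransferase of eEF2. It was a low-abundance transcript, at 13.9, 6.7, 9.1 and 9.5 CPM in null replicates 1 to 4. The wildtype libraries held 24.1, 21.8, 17.0, 22.8 and 14.4 CPM. The highest null and the lowest wildtype library, null replicate 1 and wildtype replicate 5, were nearly level. Its level fell by 51.0% (log2 -1.03 ± 0.26 SE, 95% interval -1.59 to -0.46, adjusted p = 0.035 by edgeR; unadjusted exact permutation p = 0.0079). The call was lost without any of null replicates 2, 3 and 4 or wildtype replicates 1, 2, 3 and 4, at adjusted p-values of 0.055 to 0.098 by edgeR and log2 fold changes of -1.08 to -0.89. *Eef2kmt* (ENSMUSG00000022544) lies on the reverse strand at chr16:5057131-5073888 of GRCm39, and 44.0% of the 75-base words of its transcript also occur in transcripts of other genes.

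*Eef1akmt2*, which encodes a methyltransferase of eEF1A and had the highest level per length of this role, was at 18.0, 11.3, 13.6 and 14.4 CPM in null and 22.1, 17.6, 22.2, 22.2 and 19.3 CPM in wildtype libraries. Null replicate 1 overlapped the wildtype range, and the log2 fold change was -0.53 (95% interval -0.97 to -0.09, adjusted p = 0.17 by edgeR). *Eef1akmt4* had the widest interval of all factors. It lay at 0.90, 1.9, 2.4 and 2.3 CPM in null and 1.2, 2.1, 0, 0 and 0.64 CPM in wildtype libraries, and its log2 fold change of 1.26 had an interval of -0.90 to 3.42.

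Of the 5 called genes, 4 overlap another protein-coding gene. *Rev1*, *Spg11*, *Ndufs1* and *Alg1* lie over *Eif5b*, *Eif3j1*, *Eef1b2* and *Eef2kmt*, in that order, on the opposite strand. Their log2 fold changes were 0.17, 0.18, 0.02 and -0.33, and none was called (adjusted p 0.56 to 0.95 by edgeR). The strand setting of the read counting is not given in the sources used here, so reads from such pairs may not have been told apart. Such overlap is not particular to the called genes. Uncalled factors that overlap a protein-coding gene on the opposite strand include *Eif2b1*, *Eif2d*, *Eif3f*, *Eif3i*, *Eif4enif1* and *Eif5a*, and have the same limit.

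Many factors were highest or lowest in the same library of a genotype. Null replicate 4 was the highest null library for 37 of the 54 tested factors and null replicate 1 the lowest for 37. Wildtype replicate 5 was the lowest wildtype library for 36 and wildtype replicate 1 the highest for 28. Summed over all members, the level was 13487, 15412, 15322 and 18278 CPM in null replicates 1 to 4. In wildtype replicates 1 to 5 it was 16831, 15587, 15764, 16295 and 12854 CPM. The TMM factors by which CPM are scaled were 1.16, 1.06, 1.06 and 0.93 in null replicates 1 to 4. They were 0.93, 0.95, 0.95, 0.94 and 1.06 in wildtype replicates 1 to 5. Without this scaling the factors took 1.56, 1.63, 1.62 and 1.69% of the counts in null replicates 1 to 4. In wildtype replicates 1 to 5 they took 1.56, 1.48, 1.49, 1.53 and 1.35%. How far scaling made the spread between libraries was not tested. The sums overlapped between genotypes, and null replicate 1 and wildtype replicate 5, the libraries with the lowest lens fiber marker sums, had the lowest factor sum of their group. The part of cell make-up in these levels was not tested. Without wildtype replicate 5, the same 5 factors were called, 2 higher and 3 lower, beside 8.33% of all genes.

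**Figure D4:**
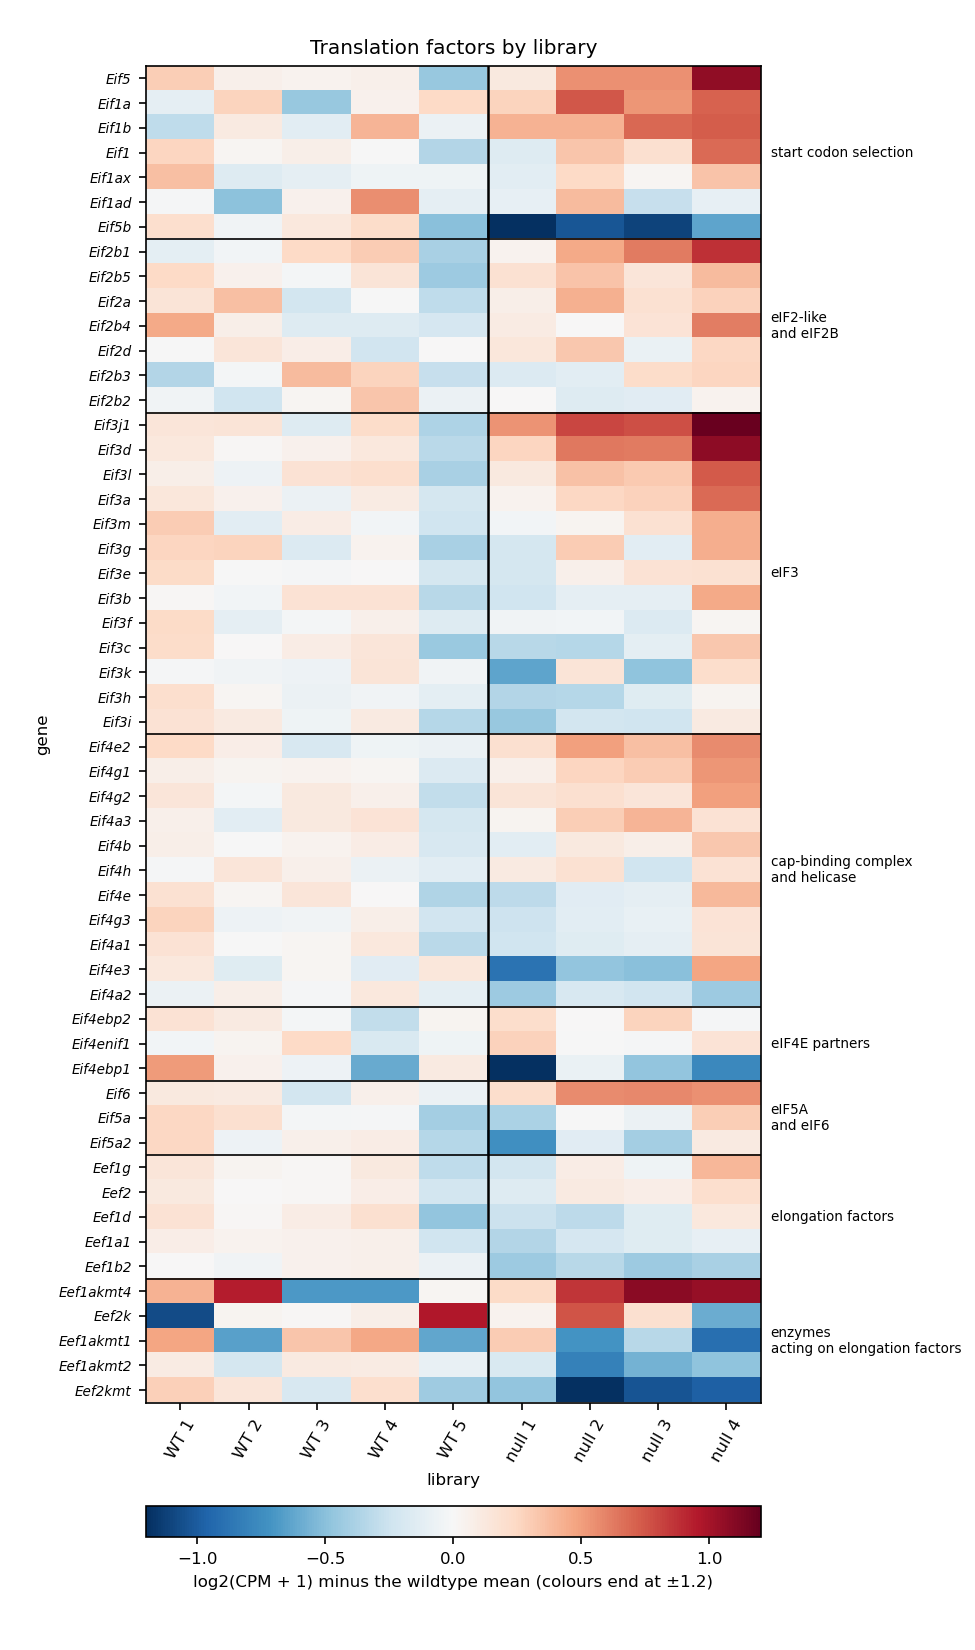
Level of the 54 tested factors (rows, by role) in the 9 libraries (columns), as log2(CPM + 1) minus the wildtype mean, with colours ending at ±1.2. Null replicate 4 is red and wildtype replicate 5 is blue for most genes, while *Eif5b*, *Eef1b2* and *Eef2kmt* are blue in all 4 null libraries.

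The remaining 24 members were not tested. Of these, 20 had no read in any library, among them the 16 numbered copies of *Eif1ad*, the helicase copies *Eif4a3l1* and *Eif4a3l2*, the germline cap-binding gene *Eif4e1b* and *Eef1ece2*. The other 4 were *Eif3j2*, *Eif4ebp3*, *Eef1a2* and *Eef1akmt3*, with at most 37 reads in a library.

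The sequence around the annotated start was read for each factor because ATF4 binds, with C/EBP partners, the composite element TGATGCAA. In the 300 bases from 250 before to 50 after the start (GRCm39, GENCODE vM39 canonical transcript, both strands), TGATGCAA was in 0 of the 54 tested factors and in 0.521% of 12851 tested protein-coding genes. The looser TGATGNAA was in 0 of the 54 and in 2.37% of those genes. No match says only that these letters are not in this window. Over all 78 members TGATGCAA was in 7 (8.97%), all numbered copies of *Eif1ad* without a read in any library, and in 0.994% of all protein-coding genes. The cyclic AMP response element TGACGTCA and its core TGACG, which overlap each other, were added after the data were seen. In the 300 bases, TGACG was in 22 of the 54 factors (40.7%) and in 29.3% of tested protein-coding genes, and in none of the 5 called factors. TGACGTCA was in 1 factor, *Eef2*, whose level overlapped between genotypes, and in 3.18% of the genes. In the 1000 bases from 500 before to 500 after the start, TGACG was in 36 of the 54 factors (66.7%) and in 57.3% of those genes. The called *Eif3d* was among these 36, with the core at position 150. The stretches from 120 bases before to 20 bases after the start are shown for the most changed factor in each direction whose call held in every alternative and for *Eef2*, with TGACG and its complement CGTCA in capitals. They lie at chr1:38036918-38037057 (forward), chr2:121858893-121859032 (forward) and chr10:81012345-81012484 (forward).
Eif5b: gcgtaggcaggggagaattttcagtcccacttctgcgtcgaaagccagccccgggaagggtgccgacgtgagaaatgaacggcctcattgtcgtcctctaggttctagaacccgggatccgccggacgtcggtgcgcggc
Eif3j1: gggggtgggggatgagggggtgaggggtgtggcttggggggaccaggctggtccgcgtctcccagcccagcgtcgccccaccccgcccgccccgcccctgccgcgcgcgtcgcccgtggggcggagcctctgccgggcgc
Eef2: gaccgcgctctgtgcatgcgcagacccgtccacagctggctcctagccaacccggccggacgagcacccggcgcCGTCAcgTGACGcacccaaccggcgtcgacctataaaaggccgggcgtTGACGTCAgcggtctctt
Neither *Eif5b* nor *Eif3j1* holds the core in this stretch, and *Eef2* holds it outside and inside the full element, which begins at position 3, counting the start as 1.

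Of 58 other genes of the translation pathway whose symbols lie outside the rule, 3 (5.17%) were called, beside 5.90% of all genes, and the median log2 fold change was 0.04. *Eif2s2*, the beta subunit of eIF2, was lower at 92.2, 100.1, 92.2 and 113 CPM in null and 177, 160, 168, 168 and 121 CPM in wildtype libraries (log2 -0.68 ± 0.13 SE, adjusted p = 0.0074 by edgeR). *Pdcd4*, an inhibitor of the eIF4A helicase, was lower at 121, 118, 122 and 92.7 CPM in null and 209, 184, 213, 214 and 191 CPM in wildtype libraries (log2 -0.83 ± 0.12 SE, adjusted p = 9.7e-04 by edgeR). *Abce1*, the ATPase that recycles ribosomes, was higher at 176, 226, 212 and 329 CPM in null and 169, 164, 141, 169 and 128 CPM in wildtype libraries (log2 0.61 ± 0.16 SE, adjusted p = 0.045 by edgeR). None of the 3 overlapped between genotypes. Over the 58 genes of the list, 2 higher and 4 lower genes did not overlap, beside 10.2% of all genes tested. The call of *Abce1* held without null replicate 1 or wildtype replicate 5 and was lost without any other library (adjusted p 0.072 to 0.11 by edgeR, log2 0.40 to 0.66). Within the sets of the list, no gene was called by edgeR among 9 enzymes of hypusine and diphthamide synthesis, 7 kinases upstream of cap binding, 9 mitochondrial factors or 3 other elongation genes.

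**Figure D5:**
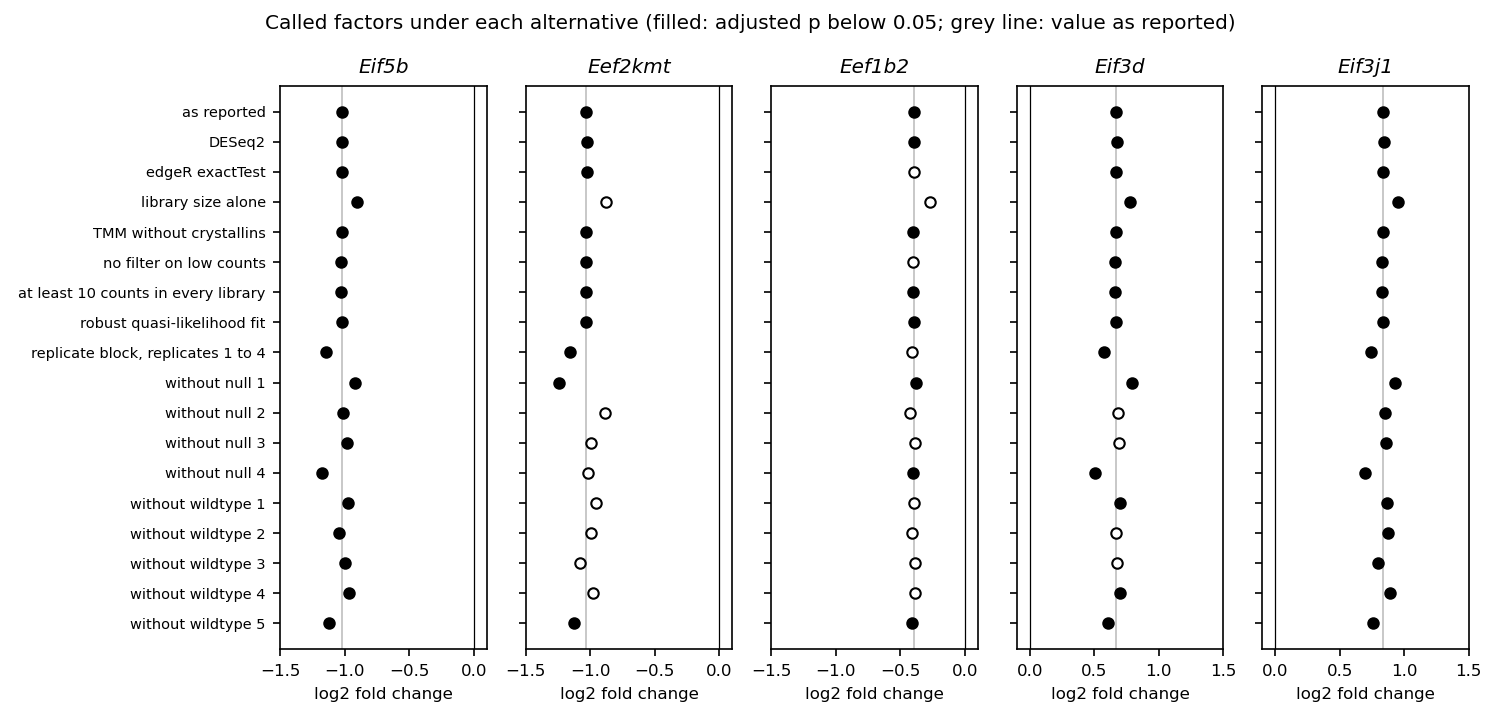
Log2 fold change (horizontal axes) of the 5 called factors as reported and under 17 alternatives (rows). Filled circles have an adjusted p below 0.05. *Eif5b* and *Eif3j1* are filled in every row, and *Eif3d*, *Eef2kmt* and *Eef1b2* are open in several.

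The calls of *Eif5b* and *Eif3j1* held in all 17 alternative analyses, with log2 fold changes of -1.17 to -0.91 and 0.70 to 0.95. *Eif3d* was called in 13 of the 17, *Eef2kmt* in 9 and *Eef1b2* in 7, each with the same direction in all 17.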

How the data were processed

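Total RNA of whole lenses had been sequenced on an Illumina NovaSeq from Takara SMARTer Stranded Pico v2 libraries. The labels name a mirVana kit for the isolation of RNA and the methods of the study an RNeasy kit. The deposited values were raw counts per gene, made by the authors with Trim Galore, HISAT2 and HTSeq on GRCm39 (Ensembl annotation, of the release named in the methods) after removal of rRNA reads. Versions of these tools and the strand setting are not given in the sources used here. Entries that name no gene were 44.6 to 47.7% of the reads in the files and were left out. Symbols, coordinates and starts were taken from GENCODE vM39.

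Counts were filtered with filterByExpr, scaled by TMM and tested with the quasi-likelihood test of edgeR 4.0.16 (R 4.3.3), with genotype as the only term and the Benjamini-Hochberg adjusted p over 14903 genes, called below 0.05. CPM are TMM-scaled, and FPKM divides CPM by the length of the canonical transcript. The code of the fit was run on counts simulated with known changes from a negative binomial model fitted to these libraries. Such counts cannot show whether that model suits the data. Exact permutation tests over the libraries, on log2 CPM, were computed for each of the 54 tested factors and are given unadjusted. Each library is 1 embryo, but which embryos shared a litter is not stated, and the precision of a level rests on 4 and 5 libraries and on its read count. The alternatives were DESeq2 1.42.0, edgeR exactTest (the test of the authors), library size alone, TMM without crystallin genes, other filters, a robust fit, a replicate block and leaving out each library.

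Every factor was assigned to a role. Values in each library were given for called factors, their paralogs, the widest change that did not pass in each direction and the factor with the highest FPKM in each role. Other factors named with values were chosen after their values were seen. The members and all lists were chosen with earlier results of these data known. Wildtype replicate numbers follow the sample titles, which name other libraries than the count files do within that genotype.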

Additional observations from a re-analysis of the deposited data

Results flagged for a closer look

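In 8 of 108 groups (54 factors in each genotype), a library stood far from the others of its genotype, by Dixon's criterion at 95%. Chance alone flags about 1 in 20 groups, which is 5.4 of 108. Wildtype replicate 5 was low for *Eef1a1* (2763 CPM, the other wildtype libraries 3357 to 3434), *Eif3d* (179 CPM, others 228 to 246) and *Eif4g1* (682 CPM, others 777 to 800). Null replicate 4 was high for *Eif3b* (358 CPM, the other null libraries 221 to 242) and *Eif4g2* (1582 CPM, others 1241 to 1281). Null replicate 1 was low for *Eif6*, at 44.3 CPM beside 56.3 to 57.2 in the other null libraries. Wildtype replicate 1 was high for *Eif1ax* (106 CPM, others 73.9 to 79.7) and wildtype replicate 4 for *Eif3k* (89.6 CPM, others 76.7 to 79.7). Of these genes only *Eif3d* was called by edgeR, while *Eif6* was called by DESeq2 (adjusted p = 0.034). With wildtype replicate 5 left out, *Eif3d* stayed called, at 0.60 on the log2 scale (adjusted p = 0.018 by edgeR).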

How the results depend on the processing

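The direction of all 5 called factors and of *Atf4* held in every alternative that gave a value. *Atf4* was called in all 16 of those (log2 -5.02 to -4.20) and could not be tested with at least 10 counts in every library. The number of factors called moved from 5 to 10 with DESeq2 (6 higher) and to 12 with library size alone (11 higher, 1 lower), while the calls over all genes went from 5.90% to 9.37 and 8.25%. Leaving out a library gave 2 to 8 factors called, 1 to 5 higher and 1 to 3 lower, beside 3.41 to 8.33% of all genes. The pathway list went from 3 called to 5 with DESeq2 (2 higher), 6 with library size alone (4 higher) and 2 to 5 without a library (0 to 2 higher, 2 to 4 lower). Its higher calls numbered 2 with exactTest, without a filter, with at least 10 counts everywhere and in the robust fit. The labels do not say that a replicate number marks a shared litter or batch, and the deviations of same-numbered libraries correlated at -0.13, -0.02, -0.02 and 0.01. With the replicate number as a block (replicates 1 to 4), 4 factors (7.41%, beside 6.02% of all genes) and 0 higher pathway genes were called, and the median log2 fold change of the factors was 0.0077. *Eef1g* turned to -0.017 under the block and ranged from -0.066 to 0.16 without a library. With library size alone *Eif4a1* turned to 0.033 and *Eif5a* to 0.077, and *Eif5a* ranged from -0.16 to 0.072 without a library. Among factors that did not pass, leaving out a library moved *Eif4a1* over -0.18 to -0.032, *Eif4enif1* over 0.047 to 0.17 and *Eef2* over 0.0078 to 0.13 (log2). In all, 13 of the 54 tested factors changed sign in at least 1 alternative, none of them called and none with a change above 0.11. The causes were not tested. Few reads limit *Eef1akmt4*, at most 22 in a library, and the 4 untested factors with at most 37.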
